A study of Mus musculus with 6 samples.

Results

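The genes described here are 9 transcription factors of liver cells, taken by name and not by a threshold on their values: the C/EBP genes Cebpa, Cebpb, Cebpd and Cebpg, the FOXA genes Foxa1, Foxa2 and Foxa3, and the homeobox genes Onecut1 and Prox1. All probes whose annotated symbol was one of these names were taken, which gave 13 of the 45281 probes on the array, for 8 of the 9 genes. Of these, 10 probes for the same 8 genes were detected (p under 0.05 against the array's background) on 3 or more of the 6 arrays and were tested, among 16559 probes tested in all. No probe carried the symbol Onecut1, so that gene was not analysed here. The 9 genes were named with earlier results of these data known.

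Livers came from C57Bl/6N mice aged 8 weeks, killed 12 hours after an intraperitoneal injection. The tunicamycin group (3 arrays) received 2.5 mg/kg tunicamycin, an antibiotic that stops N-linked glycans from being built and so stresses the endoplasmic reticulum. The vehicle group (3 arrays) received vehicle in equal volume. The drug was dissolved in DMSO and diluted with PBS holding 100 mM glucose, and the make-up of the vehicle is not spelled out in the labels. No genotype beyond the strain is labelled for either group. The labels give neither sex nor chip and do not say whether each array is a separate mouse, so the p-values measure the spread between these arrays, which may be technical in part. Each array measured RNA of whole liver, in which fewer cells of a type and less RNA per cell cannot be told apart.

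C/EBP proteins are bZIP factors that bind DNA as dimers with each other and with relatives such as ATF4 and CHOP. In hepatocytes C/EBP alpha maintains genes of metabolism and restrains division, while C/EBP beta and C/EBP delta are known for the acute phase response and for stress, and C/EBP gamma lacks a strong activation domain and acts mainly as a partner. FOXA proteins are forkhead factors that open chromatin at liver enhancers, ONECUT1 (also called HNF-6) acts with them in hepatocytes and bile duct cells, and PROX1 is a homeobox factor of hepatocytes and lymphatic endothelium that can act as a corepressor.

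Of the 10 tested probes, 5 fell and 1 rose after tunicamycin (limma, Benjamini-Hochberg adjusted p under 0.05, 3 arrays against 3). Over all 16559 tested probes, 61.5% were called, 29.8% lower and 31.8% higher in tunicamycin livers. The member share was therefore close to that of the array. Groups did not overlap for 6 of the 10 member probes, against 65.7% of all tested probes. The members differed in direction and in size. Cebpa, Foxa2 and Prox1 fell, Foxa3 fell slightly, Cebpg rose by its bright probe, and Cebpb, Cebpd and Foxa1 had no call. Foxa2 fell by more than Prox1 probe 1 (log2 fold changes of -1.65 and -0.92), but by less without background correction (-0.54 and -0.60). The median log2 fold change of all tested probes was 0.013.

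Across probes, Pearson's r was 0.887 to 0.901 for a tunicamycin with a vehicle array and 0.989 to 0.994 within a group; probes do not stand for replicates. Between 15503 and 16603 probes per array had a detection p under 0.05. Hepatocyte markers were present, with Apoa1, Apoa2, Ttr, Trf and Cyp2e1 detected on all 6 arrays, although of 14 listed markers Fgb and Tat were detected on no array and Alb on 1 of 3 arrays of each group by the probes here.

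Cebpa, the C/EBP gene most tied to the differentiated hepatocyte, fell most among the members. Its single probe had a deposited bead signal of 116.1, 114.7 and 130.3 on the tunicamycin arrays, against 308.6, 274.6 and 308.8 on the vehicle arrays, where the median signal of all probes ranged from 88.9 to 96.8 over the 6 arrays. All 3 tunicamycin arrays lay below all 3 vehicle arrays, and the probe was detected on all 6. The normalized log2 intensity was 5.51 ± 0.17 in tunicamycin livers and 7.88 ± 0.12 in vehicle livers (SD, n = 3 each). The log2 fold change was -2.37 ± 0.12 (SE), a 5.17-fold fall (limma adjusted p = 7.88e-08), with a 95% interval of -2.64 to -2.09. Only 3.24% of tested probes changed by more in either direction, and 10.9% of them were lower by at least 2-fold and called. The call held in 16 of 16 alternative settings, while the size did not: without background correction the log2 fold change was -1.25.

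Cebpb, whose protein drives acute phase genes and is often counted among stress-responsive factors, was not higher after tunicamycin. Its deposited signal was 2220, 2305.4 and 2908.4 on the tunicamycin arrays, against 3550.9, 2999.9 and 2744.2 on the vehicle arrays. The groups overlapped, as tunicamycin replicate 3 stood above vehicle replicate 3. The normalized log2 intensity was 11.26 ± 0.11 in tunicamycin livers and 11.54 ± 0.21 in vehicle livers (SD, n = 3 each). The log2 fold change was -0.28 ± 0.13 (SE; limma adjusted p = 0.0844), with a 95% interval of -0.57 to 0.0078. It was called lower in 2 of 16 alternative settings, with a trended and robust variance (adjusted p = 0.0378) and without vehicle replicate 3 (-0.38, adjusted p = 0.0365), and had a negative sign in all 16.

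Cebpd, the other acute phase C/EBP gene, had 2 probes. The detected one gave 132.6, 142.3 and 176.7 on the tunicamycin arrays, against 146.8, 139.1 and 144.8 on the vehicle arrays in deposited signal, so the groups overlapped. Its log2 fold change was 0.034 ± 0.12 (SE; limma adjusted p = 0.819), with a 95% interval of -0.22 to 0.29, and 95.3% of tested probes changed by more. The second Cebpd probe was detected on 0 arrays of either group.

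Cebpg, which encodes the partner subunit C/EBP gamma, was the only member called higher, by 1 of its 3 probes. Its bright probe gave a deposited signal of 822.5, 1107.7 and 1083.6 on the tunicamycin arrays, against 495.8, 452.5 and 400.1 on the vehicle arrays. The groups did not overlap. The normalized log2 intensity was 9.80 ± 0.19 in tunicamycin livers and 8.63 ± 0.13 in vehicle livers (SD, n = 3 each), and the log2 fold change was 1.17 ± 0.13 (SE), a 2.25-fold rise (limma adjusted p = 1.69e-05).

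The other Cebpg probes did not show this rise. Probe 2 was dim, with a signal of 91.4, 93.4 and 105.5 on the tunicamycin arrays, against 101, 93.8 and 100.1 on the vehicle arrays, and it was detected on 1 of 3 and 2 of 3 arrays. Its log2 fold change was -0.10 ± 0.14 (SE; limma adjusted p = 0.54). Probe 3 was detected on 0 of 6 arrays. The mean of the 2 tested probes gave a log2 fold change of 0.53 (limma adjusted p = 0.000739), so the size of the rise depends on the probe chosen.

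**Figure D1:**
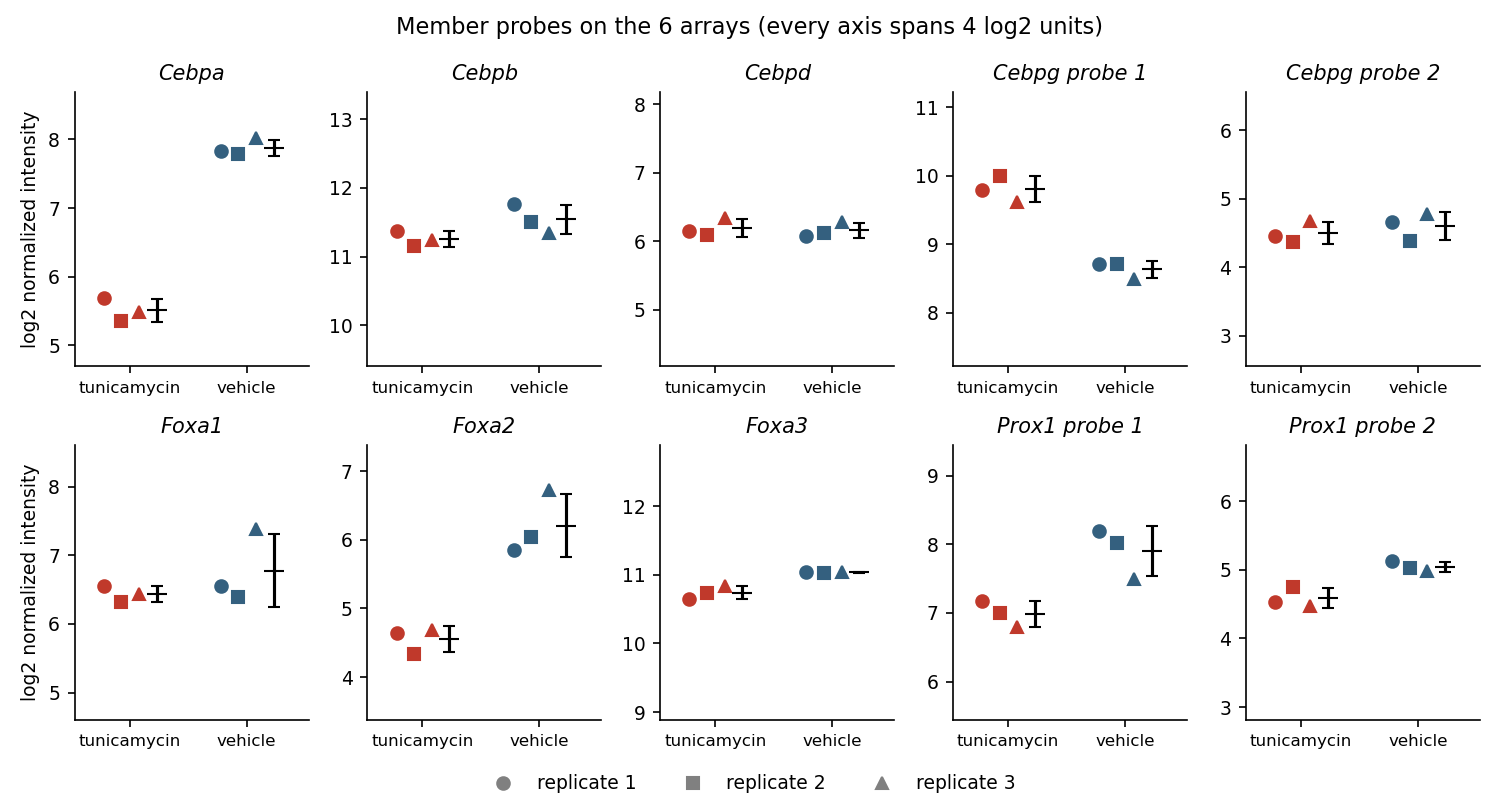
Normalized log2 intensity (vertical axis, spanning 4 log2 units in each panel) of the 10 tested member probes on the 3 tunicamycin (left, red) and 3 vehicle (right, blue) arrays. Symbols mark the replicate, and black bars give the mean and SD of 3 arrays. Cebpa, Foxa2, Foxa3 and both Prox1 probes are lower on all tunicamycin arrays, and Cebpg probe 1 is higher. Cebpb, Cebpd, Cebpg probe 2 and Foxa1 overlap.

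The contrast between Cebpa and its paralogs was measured within each array as the log2 signal of the paralog minus that of Cebpa, set to 0 at the vehicle mean. For Cebpb minus Cebpa the tunicamycin arrays stood at 2.03, 2.13 and 2.09, against 0.27, 0.063 and -0.33 on the vehicle arrays, a difference of 2.09 ± 0.18 (SE). For Cebpd minus Cebpa they stood at 2.18, 2.46 and 2.57, against -0.038, 0.059 and -0.021 on the vehicle arrays, a difference of 2.40 ± 0.12. For Cebpg minus Cebpa, by the bright probe, they stood at 3.35, 3.89 and 3.38, against 0.12, 0.17 and -0.28 on the vehicle arrays, a difference of 3.54 ± 0.23. The ratio of each paralog to Cebpa was thus 4.24-fold, 5.29-fold and 11.6-fold higher in tunicamycin livers, without overlap between groups. All 3 differences share the 1 Cebpa probe, with its log2 fold change of -2.37, so they are not independent. Those of Cebpb and Cebpd mostly restate its fall, as these 2 genes had log2 fold changes of -0.28 and 0.034.

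Each C/EBP difference had an exact two-sided permutation p of 0.1, the smallest that 3 arrays against 3 can give, and 0.12 after Benjamini-Hochberg adjustment over the 6 pairs compared. Of the genes in these pairs, Cebpa was called lower, Cebpg was called higher, and neither Cebpb nor Cebpd was called. Without background correction the differences shrank to 0.98, 1.27 and 2.27 in the same order, with the direction kept.

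**Figure D2:**
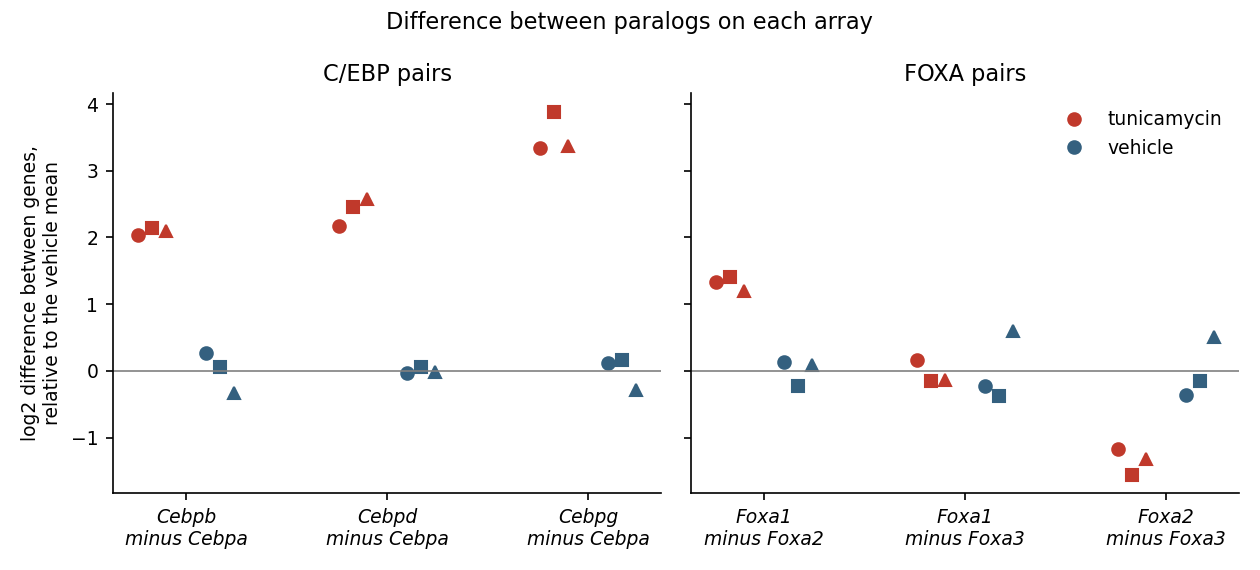
Difference in log2 normalized intensity between 2 paralogs on each array, relative to the vehicle mean (vertical axis, log2 units), for 3 C/EBP pairs and 3 FOXA pairs, with tunicamycin arrays in red on the left and vehicle arrays in blue on the right. Symbols mark the replicate; the C/EBP pairs stand between 2.03 and 3.89 on the tunicamycin arrays, and Foxa1 minus Foxa3 overlaps between groups.

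Cebpa and Cebpg lie next to each other on mouse chromosome 7, with 1 annotated gene between them, the long non-coding RNA gene Gm35611, and moved in opposite directions here. Their promoters are shown with that of Cebpb, because these 3 genes give the contrast of a fall, a rise and no call within 1 family. The sequences are the 250 bases before the annotated start from RefSeq (GRCm38.p6), 5′ to 3′ on the gene's strand. Capitals mark matches on either strand to the letters TATAAA of a TATA box, the letters CCAAT that NF-Y reads, or TGACG, the core of a cAMP response element read by CREB and ATF factors.
Cebpa, chr7:35119043-35119292, + strand: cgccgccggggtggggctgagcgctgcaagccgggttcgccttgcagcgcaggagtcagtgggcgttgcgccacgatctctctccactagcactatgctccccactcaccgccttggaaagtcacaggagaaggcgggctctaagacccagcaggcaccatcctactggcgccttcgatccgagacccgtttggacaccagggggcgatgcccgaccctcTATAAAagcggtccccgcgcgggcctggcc
Cebpb, chr2:167688665-167688914, + strand: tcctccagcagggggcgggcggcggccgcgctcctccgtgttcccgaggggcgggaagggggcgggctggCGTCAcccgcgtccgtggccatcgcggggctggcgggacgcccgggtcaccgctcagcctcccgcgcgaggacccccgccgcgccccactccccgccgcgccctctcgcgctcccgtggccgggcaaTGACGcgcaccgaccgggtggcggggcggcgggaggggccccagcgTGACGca
Cebpg, chr7:35056567-35056816, - strand: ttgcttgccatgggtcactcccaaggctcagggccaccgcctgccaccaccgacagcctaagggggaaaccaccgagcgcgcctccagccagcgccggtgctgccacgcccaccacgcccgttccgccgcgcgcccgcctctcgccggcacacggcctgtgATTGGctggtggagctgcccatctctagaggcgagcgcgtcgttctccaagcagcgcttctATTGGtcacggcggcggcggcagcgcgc

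The Cebpb window held 3 TGACG matches, beginning 180, 53 and 7 bases before the start, and the windows of Cebpa and Cebpg held 0. Of all 32851 RefSeq windows of this length, 17.8% held at least 1. Cebpa had a TATA box 30 bases before its start (12.4% of windows hold one anywhere), and Cebpg had CCAAT matches at 89 and 28 bases (33.8% of windows). None of these 3 windows matched the C/EBP letters TTGCNNAA (9.56% of windows), the C/EBP-ATF letters TGATGNAA (3.45%) or the unfolded protein response letters GACGTGG (1.97%), which says only that these letters are not in these windows. The promoter table matched 8 of the 9 genes and held no window for Cebpd.

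Among the FOXA genes, Foxa2 had the lowest log2 fold change, also in each alternative setting run. Foxa2, which acts on bile acid and lipid genes in fasted liver, gave a deposited signal of 94.2, 92.5 and 105.5 on the tunicamycin arrays, against 136, 135.8 and 170.4 on the vehicle arrays. Every tunicamycin array lay below every vehicle array, and the probe was detected on 2 of 3 tunicamycin arrays and 3 of 3 vehicle arrays. The normalized log2 intensity was 4.55 ± 0.19 in tunicamycin livers and 6.20 ± 0.46 in vehicle livers (SD, n = 3 each), with a log2 fold change of -1.65 ± 0.20 (SE), a 3.14-fold fall (limma adjusted p = 4.31e-05).

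The Foxa2 probe was near background on the tunicamycin arrays, and the size of its fall varied with the processing. Its log2 fold change ran from -2.41 with the second deposited table to -0.54 without background correction, called in all 16 alternative settings. The second Foxa2 probe was detected on 0 arrays.

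Foxa1, which shares many binding sites with Foxa2, had no call. Its deposited signal was 151.3, 153.6 and 184.6 on the tunicamycin arrays, against 174, 152.1 and 226.1 on the vehicle arrays, with overlap between groups. Vehicle replicate 3 stood highest, with a normalized log2 intensity of 7.38, against 6.56 and 6.39 on the other vehicle arrays. The log2 fold change was -0.34 ± 0.22 (SE; limma adjusted p = 0.205), with a 95% interval of -0.83 to 0.15, and -0.036 without vehicle replicate 3.

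Foxa3, the FOXA gene tied to glucose transport and fasting, fell slightly. Its deposited signals overlapped, at 1377.8, 1773.8 and 2261.1 on the tunicamycin arrays, against 2179.8, 2158.8 and 2229 on the vehicle arrays. After normalization the tunicamycin arrays stood at 10.65, 10.73 and 10.84 and the vehicle arrays at 11.04, 11.03 and 11.04 on the log2 scale, without overlap. The log2 fold change was -0.30 ± 0.10 (SE), a 1.23-fold fall (limma adjusted p = 0.0292). The call was lost under 5 of 16 alternatives, namely scaling to 1 median (adjusted p = 0.144) and leaving out tunicamycin replicate 1 (0.106) or 2 (0.0671), or vehicle replicate 2 (0.0676) or 3 (0.0654).

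The FOXA genes were compared in the same way within arrays. Foxa1 minus Foxa2 stood at 1.34, 1.41 and 1.19 on the tunicamycin arrays, against 0.14, -0.23 and 0.089 on the vehicle arrays, a difference of 1.31 ± 0.13 (SE). Foxa2 minus Foxa3 stood at -1.17, -1.56 and -1.33 on the tunicamycin arrays, against -0.36, -0.15 and 0.51 on the vehicle arrays, a difference of -1.35 ± 0.29. Both had an exact permutation p of 0.1, the smallest possible, and 0.12 adjusted. Foxa1 minus Foxa3 differed by -0.043 ± 0.32, with overlapping groups and an exact permutation p of 1. Without background correction the first difference was 0.35 and the second -0.26.

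Prox1 fell by both of its probes. Besides Prox1, only Cebpg had 2 tested probes, and Cebpg probe 2 had no call. Probe 1 gave a deposited signal of 195, 201.7 and 215.4 on the tunicamycin arrays, against 372.9, 310.2 and 239.5 on the vehicle arrays, without overlap. Vehicle replicate 3 stood lowest in its group. The normalized log2 intensity was 6.99 ± 0.19 in tunicamycin livers and 7.90 ± 0.36 in vehicle livers (SD, n = 3 each), and the log2 fold change was -0.92 ± 0.18 (SE), a 1.89-fold fall (limma adjusted p = 0.000989).

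Prox1 probe 2 was dimmer, at 92.6, 100.6 and 100.9 on the tunicamycin arrays, against 112, 105.4 and 103.8 on the vehicle arrays, and was detected on 1 of 3 tunicamycin and 3 of 3 vehicle arrays. Its log2 fold change was -0.45 ± 0.12 (SE; limma adjusted p = 0.00551), or -0.11 without background correction and -0.90 with the second deposited table. Onecut2, a paralog of the unmeasured Onecut1 that was named after its value was seen, fell by both tested probes, by 1.66 on the log2 scale for the brighter one.

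**Figure D3:**
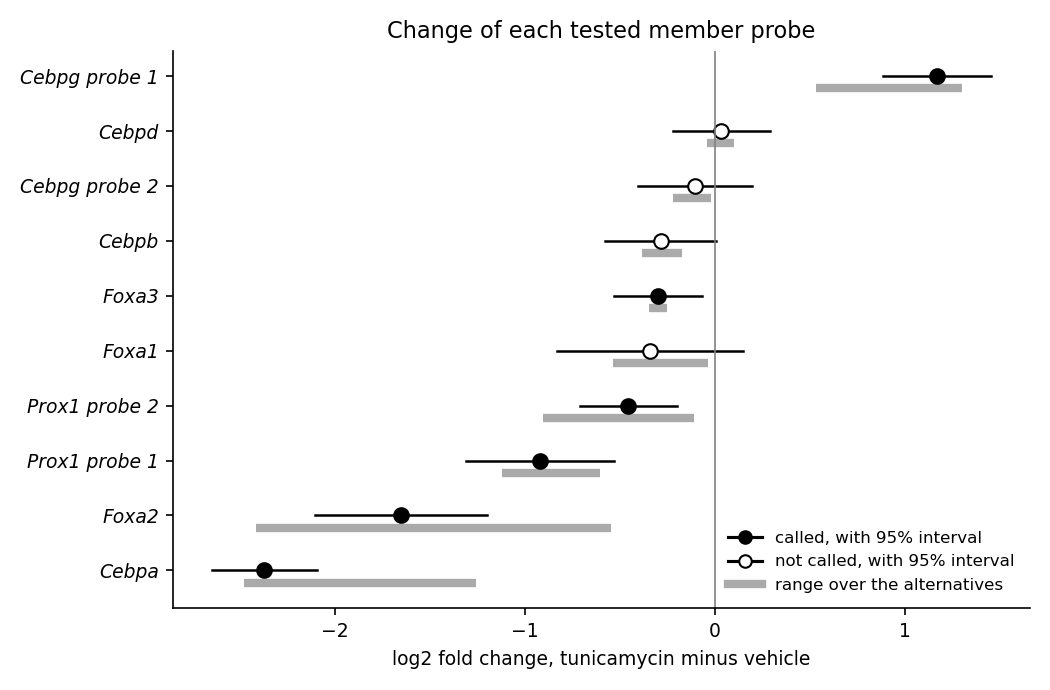
Log2 fold change, tunicamycin minus vehicle (horizontal axis), of the 10 tested member probes, with the 95% interval as a black line and the range over the alternative settings as a grey bar. Filled points were called at an adjusted p under 0.05; the estimates run from -2.37 for Cebpa to 1.17 for Cebpg probe 1, and the grey bars are widest for Foxa2 and Cebpa.

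Vehicle arrays differed from each other in how the members stood. By normalized intensity of the tested probes, vehicle replicate 3 was the highest vehicle array for Cebpa, Cebpd, Cebpg probe 2, Foxa1, Foxa2 and Foxa3 and the lowest for Cebpb, Cebpg probe 1 and both Prox1 probes. Without it, the log2 fold change of Foxa2 was -1.39 and that of Prox1 probe 1 was -1.12, both called. The genes with the pattern most like that of Cebpa over the 6 arrays, by the root mean square difference of log2 deviations from the vehicle mean among 9324 other named genes, were Grb7 (0.0797), Fgf1 (0.0921) and Cbr1 (0.0925), with log2 fold changes of -2.37, -2.30 and -2.41. Those most like Cebpb were Fgfrl1 (0.041), Hspa4l (0.043) and Ogdh (0.056). Those most like Cebpd were Zfp341 (0.033), Cnksr2 (0.039) and Dclre1b (0.042). Fold changes of like size follow from this measure. As Cebpb and Cebpd had no call, it picks genes of little change for them. Whether these matches are closer than chance gives was not tested.

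Partners and regulators of C/EBP proteins were described next, each gene by its brightest tested probe. Among all 9332 named genes tested, 64.3% were called, 31.2% higher and 33.1% lower, with a median log2 fold change of -0.025. Of 13 tested partners and regulators, 7 rose and 3 fell, with a median of 0.51. Ddit3, which encodes the C/EBP relative CHOP that dimerizes with C/EBP alpha and beta, rose by 8.11 ± 0.11 on the log2 scale (SE; limma adjusted p = 1.56e-11). Atf3, a stress-induced bZIP factor, rose by 6.05 ± 0.23 and Trib3, a pseudokinase that binds ATF4 and CHOP, by 4.85 ± 0.19. The Atf3 probe was detected on 3 of 3 tunicamycin and 2 of 3 vehicle arrays, with a mean log2 intensity of 4.61 on the latter. Atf4, Trib1 and Cebpe were named after their values were seen. Atf4, a partner of C/EBP gamma and beta, rose by 1.88 ± 0.13. Trib1, whose protein directs C/EBP alpha to degradation, had a log2 fold change of -1.51 ± 0.11 and Cebpe, known from granulocytes, of -1.88 ± 0.18 by its brighter probe; each was detected on 2 of 3 tunicamycin and 3 of 3 vehicle arrays.

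Other transcription factors of hepatocytes fell more often than not. Of 26 tested, 21 fell, 1 rose and 4 had no call, with a median log2 fold change of -0.80. Dbp, a clock output factor, fell 12.8-fold, Srebf1, which drives lipid synthesis, 8.87-fold, and the xenobiotic receptor gene Nr1i3 8.77-fold. The least changed Nr1i3 probe had a log2 fold change of -2.49. The 1 that rose, named for that reason, was the nuclear receptor gene Rora.

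Liver genes linked to C/EBP alpha mostly fell. Of 17 tested, 14 fell, 2 rose and 1 had no call, with a median log2 fold change of -0.74. Gys2, the liver glycogen synthase, fell 5.59-fold and Arg1, the last enzyme of the urea cycle, 4.55-fold. The 2 that rose, Hamp being named after its value was seen, were Hamp, which encodes the iron hormone hepcidin, at 3.76-fold, and Cyp2b10, at 30.5-fold by its brighter probe and with a log2 fold change of 0.96 by the other. Of 12 tested genes linked to FOXA factors, 11 fell and 0 rose, with a median of -0.81, or -0.80 with 2 genes, undetected in a group by their brightest probe, at their bound. Cyp7a1, which starts the main route from cholesterol to bile acids, had a log2 fold change of -4.57 ± 0.69 (SE), Abcb11, the bile salt export pump, fell 3.65-fold, and Pck1, an enzyme of gluconeogenesis, was at least 2.78-fold lower by its brighter probe (limma adjusted p = 3.45e-05), which was detected on 0 of 3 tunicamycin arrays and 3 of 3 vehicle arrays. The other Pck1 probe had a log2 fold change of -0.62. The 2 lists share 3 tested genes, Abcc2, Pck1 and Ttr.

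Genes of the acute phase response and of its signalling, in a list linked to C/EBP beta and delta, went both ways. Of 22 tested, 12 fell, 4 rose and 6 had no call, with a median log2 fold change of -0.36. Lcn2, an iron-scavenging protein of inflammation, rose 7.04-fold and Apcs, serum amyloid P, 6.13-fold. Saa1, Saa2, Crp, Saa4 and Socs3 were picked after their values were seen. Saa1 and Saa2, serum amyloid A genes of similar sequence whose probes may not tell them apart, rose by 1.51 and 1.75 on the log2 scale. Il6ra, the receptor subunit for interleukin-6, fell 5.60-fold by its brightest probe, with a least changed probe at -0.73, and Crp and Saa4 also fell. Socs3, a feedback inhibitor of that pathway, had a log2 fold change of -0.091 ± 0.32 (SE; limma adjusted p = 0.824).

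**Figure D4:**
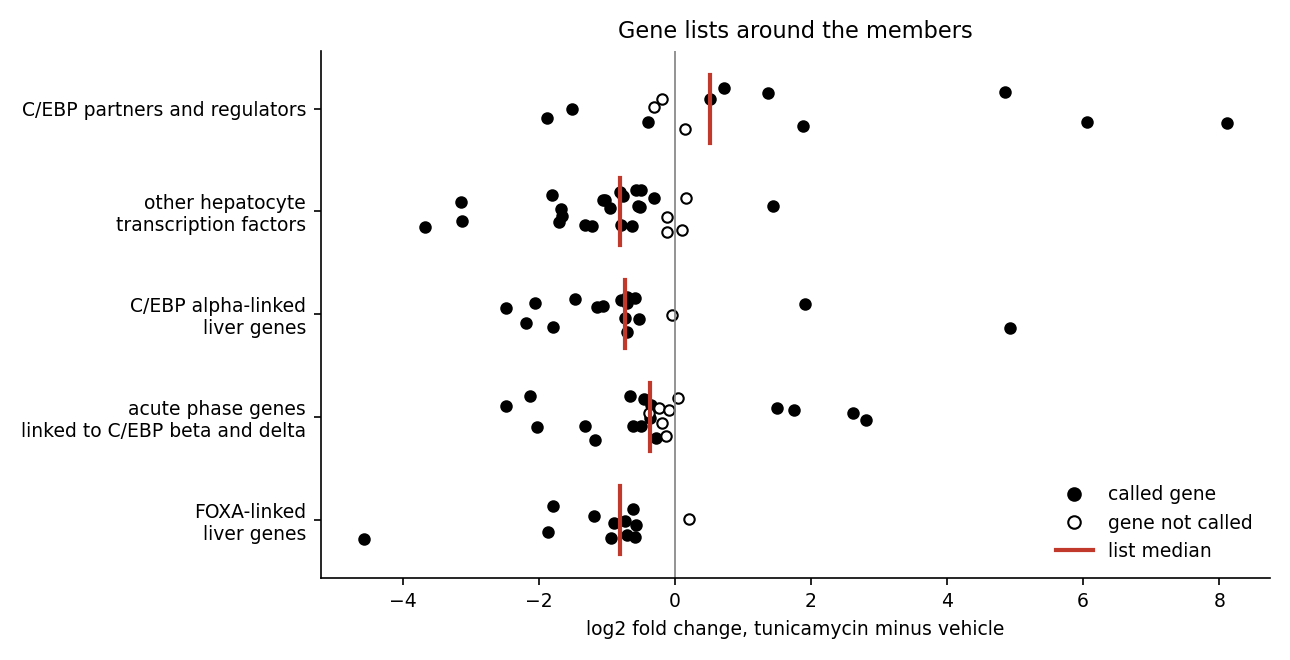
Log2 fold change, tunicamycin minus vehicle (horizontal axis), of each tested gene in 5 lists around the members; filled points were called, open points were not, and red lines are list medians. The medians are 0.51 for C/EBP partners and regulators, -0.80 for other hepatocyte factors, -0.74 for C/EBP alpha-linked genes, -0.36 for acute phase genes and -0.81 for FOXA-linked genes.

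Several members are also expressed outside hepatocytes, so markers of other liver cells are given beside them. Of 12 tested macrophage and Kupffer cell markers, 10 fell and 0 rose, led by Vsig4 at 5.14-fold, Folr2 at 3.36-fold and C1qb at 3.34-fold lower, and Cd5l was detected on no array. Over 21 probes the summed deposited signal was 2573.6 to 5361.8 on the tunicamycin arrays, against 5437.9 to 7528.6 on the vehicle arrays. Such sums take every probe of a list, undetected ones included, without background subtraction or normalization. The median signal of all probes was 88.9 to 96.8 per array, so background mutes changes in these sums. The mean log2 deviation of the tested macrophage markers from the vehicle mean was -1.71, -1.47 and -0.53 on tunicamycin replicates 1, 2 and 3.

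Of 4 tested neutrophil markers, 1 rose, Retnlg at 1.27-fold, detected on 3 of 3 tunicamycin arrays and 1 of 3 vehicle arrays (limma adjusted p = 0.0456), a call lost in 10 of 16 alternative settings. Of 11 with a probe, 5 were detected on no array: Camp, Cxcr2, Mmp8, Mpo and Ngp. Over 20 probes the summed signal, largely background, was 1906.9 to 2032.7 on the tunicamycin arrays, against 1837.9 to 1986.7 on the vehicle arrays. Of 4 tested cholangiocyte markers, 0 were called, although 1 was called higher in 3 of 16 alternative settings, and Krt19, Epcam, Cftr and Cldn4 were detected on no array. Their summed signal over 14 probes, also largely background, was 1477.2 to 1734.5 on the tunicamycin arrays, against 1484.6 to 1625.5 on the vehicle arrays. Like sums in the neutrophil and cholangiocyte lists therefore do not show that these cells were unchanged. Of 10 tested lymphatic and sinusoidal endothelial markers, 3 fell (Eng 1.64-fold, Stab2 1.61-fold and Cdh5 1.27-fold) and 7 had no call. Only 2 fell in 8 of 16 alternative settings, and Mmrn1 was detected on no array. The summed signal over 22 probes was 4346.3 to 5826.3 on the tunicamycin arrays, against 5379.3 to 6008.5 on the vehicle arrays. Of 11 tested hepatocyte markers, 7 fell and 0 rose, led by Asgr2 at 2.55-fold, Ass1 at 2.21-fold and Asgr1 at 1.79-fold lower. The 4 without a call were Apob, Apoa2, Apoa1 and Cyp2e1, with log2 fold changes of 0.21, -0.063, -0.042 and -0.011. The summed signal of the hepatocyte list over 17 probes was 115537.6 to 141759 on the tunicamycin arrays. On the vehicle arrays it was 178071.4 to 195116.2, without overlap. These sums were not normalized, and after normalization 65.7% of all tested probes had groups without overlap. The hepatocyte markers share 3 tested genes with the C/EBP alpha-linked list (Ass1, Cps1 and Ttr) and 3 with the FOXA-linked list (Apob, Serpina1a and Ttr). The part of these markers in the changes of the members was not tested.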

How the data were processed

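Mouse liver RNA was measured on 6 Illumina bead arrays, 3 labelled tunicamycin and 3 labelled vehicle, grouped by sample title. The deposited table gives a mean bead intensity per probe, per the file headers, with no background subtraction or normalization visible in the values, and beside it a deposited detection p-value, per the file headers. A second deposited table holds intensity values that, read from the values, are background-subtracted and quantile-normalized, with 99.97% of ranked values within 0.1 across arrays; it served as an alternative, floored at 16. Which software and scanner made them is not given in the sources used here.

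The R package limma (3.58.1, with R 4.3.3) removed background by normexp, using the deposited detection p-values to estimate it, then added 16, quantile-normalized and took log2, which understates changes of dim probes. Quantile normalization gives all arrays 1 distribution and so partly sets the balance of rises and falls. Detection at p under 0.05 on 3 or more arrays was required, and each such probe was fitted with lmFit and eBayes, two-sided, with Benjamini-Hochberg adjustment over all 16559. A gene in a list was represented by its brightest kept probe. Symbols came from the platform annotation (34885 probes with 1 symbol, 18 with several, 10378 unnamed here), checked by Entrez ID against RefSeq GRCm38.p6; 78 named probes had no entry there and 0 symbols changed. Paralogs were compared by exact permutation of the arrays. With 6 arrays, precision is limited by their number. In simulated data of the same 16559 probes, 100 probes were changed by 1 log2 unit and 100 by 2, with independent noise. Of these changes, 83% and 98% were recovered. The real arrays had 61.5% of probes called, a far larger share, so these rates do not measure the power of the real comparison.

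The members and gene lists were chosen with earlier results of these data known, and the lists come from general knowledge. Named are all member probes, the 3 largest called changes of each gene and marker list, and the 3 genes most like Cebpa, Cebpb and Cebpd in pattern. Other genes were picked after their values were seen, or are markers given for their detection. Alternatives tried were no background correction, an offset of 50, 1 median per array, the second table, no filter, a detection p under 0.01, a trended and robust variance, 1 probe or the mean of probes per gene, a replicate block and leaving out each array.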

Additional observations from a re-analysis of the deposited data

How the results depend on the processing

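The calls of Cebpa, Cebpg probe 1, Foxa2 and both Prox1 probes held in every alternative run for them, and Foxa1, Cebpd and Cebpg probe 2 were called in none. Between 4 and 6 member probes were called lower and 1 higher in each setting. Sizes depended on the background step. Without background correction the differences between paralogs were 0.98 for Cebpb minus Cebpa, 1.27 for Cebpd minus Cebpa, 2.27 for Cebpg minus Cebpa, 0.35 for Foxa1 minus Foxa2, 0.093 for Foxa1 minus Foxa3 and -0.26 for Foxa2 minus Foxa3. With an offset of 50 they were 1.48, 1.78, 2.86, 0.65, 0.029 and -0.62 in the same order. Foxa1 minus Foxa3 was 0.057 with 1 median per array. With the second deposited table Foxa1 minus Foxa2 was 2.07 and Foxa2 minus Foxa3 was -2.14, and Cebpg minus Cebpa was 2.90 when probes of 1 gene were averaged. Leaving out 1 array gave -0.23 to 0.26 for Foxa1 minus Foxa3, -0.040 to 0.092 for the log2 fold change of Cebpd and 0 to 1 FOXA-linked genes called higher (1 without vehicle replicate 1). Among the cell type markers, the neutrophil call was lost in 10 of 16 alternatives and 1 cholangiocyte marker was called higher in 3, with 1 median per array, with the replicate block and without vehicle replicate 3. Without vehicle replicate 1, 1 hepatocyte and 1 endothelial marker were called higher. Over the alternatives, 8 to 11 macrophage, 6 to 7 hepatocyte and 2 to 3 endothelial markers fell. The cause of these shifts was not tested.

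The replicate numbers were not taken to pair the arrays. Deviations of same-numbered arrays from their group means correlated at 0.13, 0.053 and 0.019. Of the 3 tunicamycin arrays, 1 correlated best with its own number. With 3 arrays per group, these values cannot show whether the arrays were paired. With the replicate block 5290 probes were called higher and 4959 lower, against 5263 and 4928 without it. The block moved no call of a member probe.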
